A study of Zea mays with 6 samples.

Results

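A group of 86 maize genes had a normalized count in every mop1 library at least 1.5 times that of any wild-type library. They came from 39756 genes listed for RNA sequencing of immature anthers, of which 7185 had no reads in any library. The members were chosen by their normalized counts: the lowest of the 3 mop1 libraries had to be at least 1.5 times the highest of the 3 wild-type libraries, and the mean of the 6 libraries at least 50. Gene IDs from Zm00001eb078500 to Zm00001eb082500, 368 rows of the table, were left out, and 1 gene among them met the same condition. A normalized count is the number of reads of a gene divided by 1 scaling factor for its library. The condition used the difference between mop1 and wild type, so that difference is described here and supports nothing by itself.

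The mutant plants were mop1/mop1 and the controls were their +/+ siblings (WT), both in a Mo17/B73 hybrid background, with 3 libraries of each. The anthers held meiocytes in the first meiotic division, and the labels name no mop1 allele, no plant age and no pooling of plants. They do not say whether the 3 libraries of a genotype came from separate plants, so the spread between libraries may be technical. Whole anthers were sampled, so more cells of a type and more RNA per cell cannot be told apart for any gene below.

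The gene mop1 (mediator of paramutation1) encodes the maize counterpart of the Arabidopsis RNA-dependent RNA polymerase RDR2. That enzyme makes double-stranded RNA, which is cut into short interfering RNAs, and these guide cytosine methylation to transposons and other repeats, many of them close to genes. In maize, loss of mop1 is known for releasing silenced transposons and for undoing paramutation, a heritable silencing passed from one allele to another. The design text of the study asks which expression changes go with crossovers in mop1 plants. The deposited table gives IDs without names, and none of them matched the reference table used here, so no function is given for any member, and markers of anther cell types, of meiosis and of DNA methylation, mop1 itself among them, were not analysed here.

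The libraries held 22635163 to 26531475 reads assigned to genes. On the log2 scale, mop1 replicates 1 and 2 had a Pearson correlation of 0.96 over 23150 genes, while mop1 replicate 3 had 0.86 and 0.89 with them, and the WT libraries had 0.95 to 0.97 among themselves. Between genotypes the correlations were 0.85 to 0.96, so the libraries did not part by genotype. The highest, 0.96, was between mop1 replicate 1 and WT replicate 1. Replicate 3 of mop1 had 0.91 with WT replicate 3, above its values with the other mop1 libraries. These correlations run across genes of the same libraries and carry no test. Because mop1 replicate 3 stood apart from the other mop1 libraries, the members are also given with and without it below.

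Members were few among the genes that passed the same minimum mean. The condition was met by 86 of 19278 genes with a mean of at least 50 outside the left-out IDs, or 0.446%. Turned round, so that every mop1 library lay below every WT library by the same factor, it was met by 140 genes, or 0.726%. Without the factor of 1.5, all 3 mop1 libraries lay above all 3 WT libraries at 7.35% of these genes (1416 genes).

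Most members differed by 2- to 4-fold. The ratio of the mop1 mean to the WT mean was 8 or more at 6 members, 4 to 8 at 14, 2 to 4 at 59 and under 2 at 7, with a median of 2.80 and a range of 1.76 to 69.4. On the log2(value + 1) scale, the fold change from limma, a linear model fitted across all genes, had a median of 1.49 over the members and -0.02 over all 23150 genes tested, and the median standard error was 0.31 at the members and 0.27 over all genes. The gap between groups, meaning the lowest mop1 library over the highest WT library, had a median of 1.79. It was at least 4 at 7 members, 3 to 4 at 5, 2 to 3 at 16 and 1.5 to 2 at 58.

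**Figure D1:**
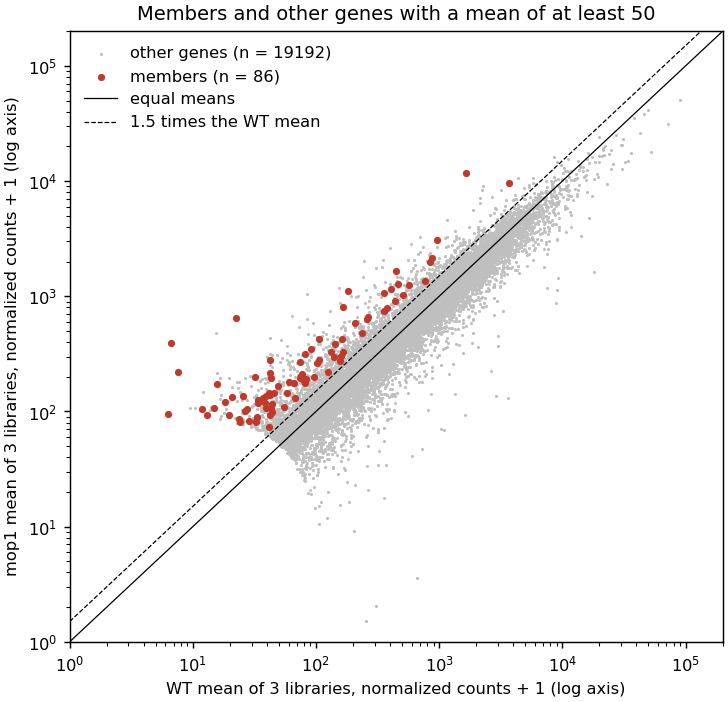
Each point is a gene with a mean of at least 50, with the WT mean on the horizontal axis and the mop1 mean on the vertical axis, both as normalized counts plus 1 on log axes. The 86 members (red) lie above the dashed line at 1.5 times the WT mean. Other genes above that line (grey) have at least 1 mop1 library under 1.5 times the highest WT library, and that library may lie below WT.

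Members had lower normalized counts than most genes that passed the same minimum. The mean of the 6 libraries had a median of 132 at the members, against 527 over the 19278 genes. It was under 100 at 33 members (38.4%), against 9.58% of the 19278 genes, and 1000 or more at 7 members (8.14%), against 28.96%. At 30 members every mop1 library was at 50 or more and every WT library under 50. Such members passed the minimum mean only through their mop1 libraries, so this count follows from the condition and supports nothing. No member was without reads in a WT library: the fewest were 2 reads in 1 WT library and 19 reads over the WT group. Together the members took 0.271%, 0.315% and 0.323% of all normalized counts in the 3 mop1 libraries, against 0.103%, 0.0897% and 0.0795% in the 3 WT libraries, in the order of replicates 1, 2 and 3. Much of this came from the 2 members of highest mean, Zm00001eb415220 and Zm00001eb008360. Without them the members summed to 34154, 39151 and 31480.5 normalized counts in mop1, against 12570.4, 12582 and 12089.7 in WT, so that mop1 replicate 3 was the lowest of mop1 and the WT libraries were nearly level.

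**Figure D2:**
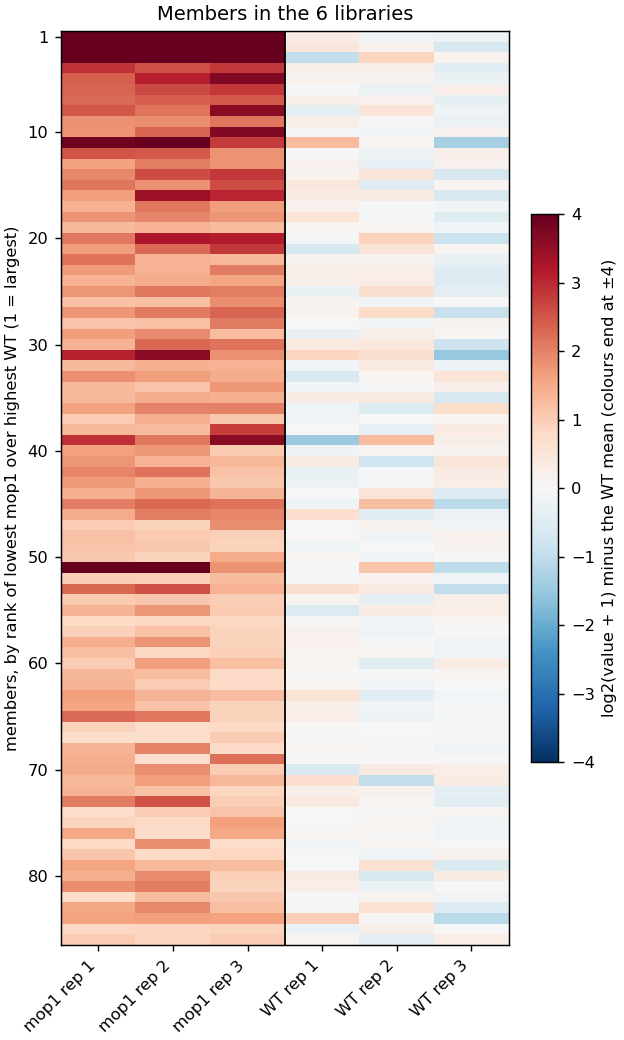
Rows are the 86 members, ordered by the lowest mop1 over the highest WT library, and columns are the 6 libraries, mop1 on the left. Colour is log2(value + 1) minus the WT mean of that gene, with colours ending at 4 in either direction; every mop1 cell is red, most deeply in the first rows, while the shade among mop1 libraries differs from member to member.

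The widest gap was at a gene near background in WT. Zm00001eb072130 had 351, 381 and 452 normalized counts in mop1, against 7.14, 5.14 and 4.78 in WT, in the order of replicates 1, 2 and 3, which is kept below. The 3 mop1 libraries lay close together and about as far from WT in replicate 3 as in the others. The WT values rest on 21 reads over the group, and the mop1 values on 1567. From these reads the ratio of mop1 to WT was 69.5, with a 95% interval of 45.3 to 113 (exact, conditional on the reads of both groups), which covers counting error only.

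Other members were also low in WT, and their mop1 libraries were spread more widely. Zm00001eb428740 had 1033, 496 and 425 normalized counts in mop1, against 27.8, 23.1 and 12.7 in WT, with the highest value in mop1 replicate 1. Zm00001eb396570 had 110.2, 234 and 307 in mop1, against 2.38, 11.1 and 6.37 in WT, and here mop1 replicate 1 was the lowest of its group. The lowest mop1 library still lay 15.3 and 9.89 times above the highest WT library at these genes. The log2 fold changes were 4.83 ± 0.44 and 4.90 ± 0.61 (standard error, n = 3 each).

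Of the next 6 members by gap, 4 are given here and the others, Zm00001eb432880 and Zm00001eb182370, below. These 4 had under 50 normalized counts in every WT library. Zm00001eb075700 had 129.7, 103 and 125 in mop1, against 19.83, 19.7 and 11.9 in WT, and Zm00001eb114220 had 61.3, 100.5 and 151 in mop1, against 11.9, 12.0 and 8.76 in WT. The mop1 libraries lay closer together at Zm00001eb182050, with 200.3, 219.6 and 228 in mop1, against 47.6, 46.3 and 31.1 in WT. Zm00001eb183900 had 95.5, 96.7 and 117 in mop1, against 30.9, 26.6 and 21.5 in WT. In each of these 4 genes WT replicate 3 was the lowest library, but not at Zm00001eb432880, where it was the highest of WT, nor at Zm00001eb182370, where WT replicate 1 was the lowest. Their log2 fold changes were between 1.94 ± 0.29 for Zm00001eb183900 and 3.07 ± 0.43 for Zm00001eb114220 (standard error, n = 3 each).

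Zm00001eb432880 combined a wide gap with a moderate level in WT. It had 915, 1124 and 1296 normalized counts in mop1, against 182, 150.0 and 216 in WT. The groups were 4.24-fold apart at their nearest libraries, and the log2 fold change was 2.60 ± 0.21 (standard error, n = 3 each). With Zm00001eb072130, it was 1 of the 2 members that passed limma's test over all genes.

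**Figure D3:**
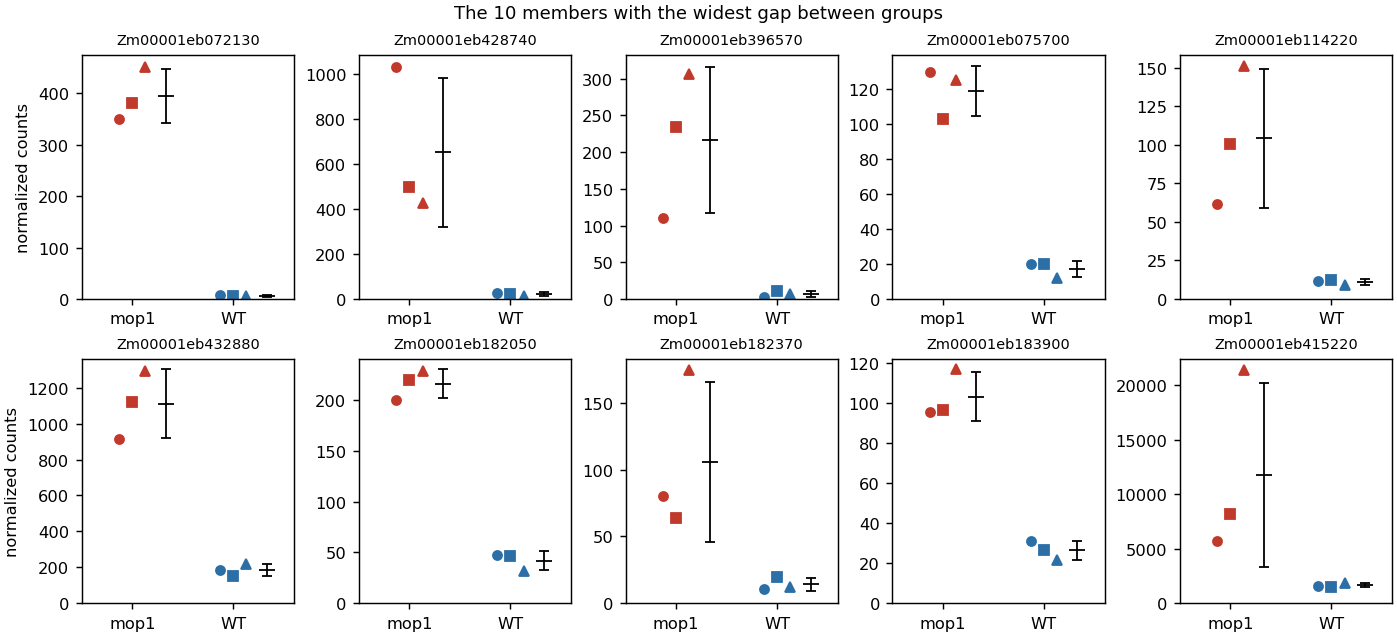
Normalized counts at the 10 members with the largest ratio of the lowest mop1 to the highest WT library, with circles, squares and triangles for replicates 1, 2 and 3, and the mean and SD of 3 libraries beside them in black. The mop1 libraries (red) lie above the WT libraries (blue) in every panel, as the choice of members requires, and their spread is small at Zm00001eb182050 and large at Zm00001eb415220.

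By 3 tools, between 2 and 79 members were called higher. limma called 2 of the 86 members at a Benjamini-Hochberg adjusted p of 0.05, and edgeR's quasi-likelihood test on reads recovered from the table also called 2. The share of all 23150 genes called higher was 0.00864% by limma and 0.00864% by edgeR, which is 2 genes each, and both were members. DESeq2 called 79 members, where it called 0.95% of all genes (220 genes). The members were chosen on this same contrast, so these counts describe them and test nothing. With the replicate number as a block, limma called 3 members. Without mop1 replicate 3 it called 19 members and 166 genes higher. Without mop1 replicate 2, or without any 1 of the WT libraries, limma called 0, while 85 or 86 members and 538 to 744 of the 23150 genes were higher at an unadjusted p under 0.05. Members chosen on this contrast are likely to pass it, so this count supports nothing.

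The 6 members with the highest mean of the 6 libraries behaved in different ways within mop1. Values are not divided by gene length, so they do not rank transcripts between genes. Zm00001eb415220 had 5655, 8173 and 21416 normalized counts in mop1, against 1581, 1510.3 and 1858 in WT. Its highest mop1 library, replicate 3, was 3.79 times its lowest, while the WT libraries differed by 1.23-fold. The mean was 11748 ± 8467 in mop1 and 1650.0 ± 184 in WT (SD, n = 3 each).

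Zm00001eb008360 showed the opposite arrangement of spread. It had 9440.2, 9744 and 9489.7 in mop1, against 6219.8, 3309 and 1474 in WT. The mop1 libraries differed by 1.03-fold and the WT libraries by 4.22-fold. Its place among the members rests on WT replicate 1, which was within 1.52-fold of the lowest mop1 library.

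The other 4 of these 6 members had ratios of means from 1.76 to 3.17. Zm00001eb117590 had 3488, 3945 and 1761 normalized counts in mop1, against 1153, 810.0 and 939 in WT. Zm00001eb156510 had 1721, 2706 and 1961 in mop1, against 916, 633 and 1051 in WT. Zm00001eb254900 had 1468, 3075 and 1392 in mop1, against 786, 899 and 849.9 in WT. At each of these, mop1 replicate 2 was the highest library.

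Zm00001eb232050 had the smallest spread of these members in mop1, with 1339, 1352 and 1358 normalized counts, against 792, 704 and 799.7 in WT. Its mean was 1349 ± 9.84 in mop1 and 765 ± 53.4 in WT (SD, n = 3 each). It was 1 of 6 members at which the libraries of each genotype lay within 1.25-fold of one another. The others, named after their values were seen, were Zm00001eb410140, Zm00001eb214580, Zm00001eb246010, Zm00001eb125990 and Zm00001eb033290. Their ratios of means were 1.76 at Zm00001eb232050 and Zm00001eb033290, 2.03 to 2.10 at Zm00001eb125990, Zm00001eb246010 and Zm00001eb214580, and 2.52 at Zm00001eb410140.

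Spread within a genotype was not small at most members. The highest over the lowest mop1 library had a median of 1.54 at the members, close to 1.53 over the 19189 genes of the same minimum mean that had reads in every library. The same ratio among WT libraries had a median of 1.52 at the members, against 1.31 over those genes. Over 2-fold spread was seen among mop1 libraries at 21 members and among WT libraries at 27.

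No single library was the lowest of mop1 at nearly all members. The lowest mop1 value was in replicate 1 at 32 members, in replicate 2 at 18 and in replicate 3 at 36, and the highest WT value was in replicate 1 at 30, in replicate 2 at 31 and in replicate 3 at 25. Over the 19278 genes, mop1 replicates 1 to 3 were the lowest of mop1 at 32.4%, 33.5% and 34.2%. Among the members these shares were 37.2%, 20.9% and 41.9%. The highest WT value was in replicates 1 to 3 at 31.7%, 31.1% and 37.2% of the 19278 genes. Among the members it was at 34.9%, 36.0% and 29.1%.

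Replicate 3 of mop1 lay within 1.5 times of the mean of replicates 1 and 2 at 57 members (66.3%), against 61.9% of the 19278 genes. It was at least 1.5 times higher at 13 members (15.1%, against 19.6%) and lower by at least that factor at 16 (18.6%, against 18.5%). The median ratio was 0.969 at the members and 1.06 over the 19278 genes. The condition limits this ratio on both sides, because replicate 3 and replicates 1 and 2 of mop1 each had to lie above WT by the same factor.

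At the 3 members where mop1 replicate 3 was lowest relative to its group, WT replicate 3 was low too. Zm00001eb003450 had 133, 135 and 17.5 normalized counts in mop1, against 3.97, 10.3 and 1.59 in WT. Zm00001eb426080 had 139, 201 and 57.4 in mop1, against 29.3, 24.9 and 4.78 in WT. Zm00001eb279080 had 179, 248 and 85.8 in mop1, against 28.5, 12.0 and 3.98 in WT. At each of these genes the replicates numbered 3 were the lowest of their genotype, at 0.131 to 0.401 of the mean of the other mop1 libraries and at 0.176 to 0.224 of the mean of the other WT libraries. These 3 members do not stand for all 16 members with mop1 replicate 3 lower by at least 1.5 times. At those 16, WT replicate 3 was the lowest of WT at 8, and its median ratio to the mean of the other WT libraries was 0.896. At the 57 members with mop1 replicate 3 within 1.5 times, it was the lowest of WT at 29, with a median ratio of 0.861.

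At the 3 members with mop1 replicate 3 highest relative to its group, WT replicate 3 was not the lowest of WT. Zm00001eb415220, given above, had a ratio of 3.10 in mop1 and 1.20 in WT. Zm00001eb179710 had 203, 189 and 548 normalized counts in mop1, against 78.5, 63.4 and 101 in WT. Zm00001eb182370 had 79.97, 63.4 and 175 in mop1, against 10.3, 19.7 and 11.9 in WT. WT replicate 3 was thus the highest of its group at the first pair of these genes and between the others at Zm00001eb182370. Of all 13 members with mop1 replicate 3 at least 1.5 times higher, WT replicate 3 was the lowest of WT at 3. Its median ratio to the mean of the other WT libraries was 1.02 at those 13.

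Over all 86 members, the log2 ratio of replicate 3 to the mean of replicates 1 and 2 in mop1 and the same ratio in WT had a Pearson correlation of 0.30. Over the 19278 genes, with 1 added to each value, it was 0.53. The points are genes of the same 6 libraries, so these correlations are descriptions.

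**Figure D4:**
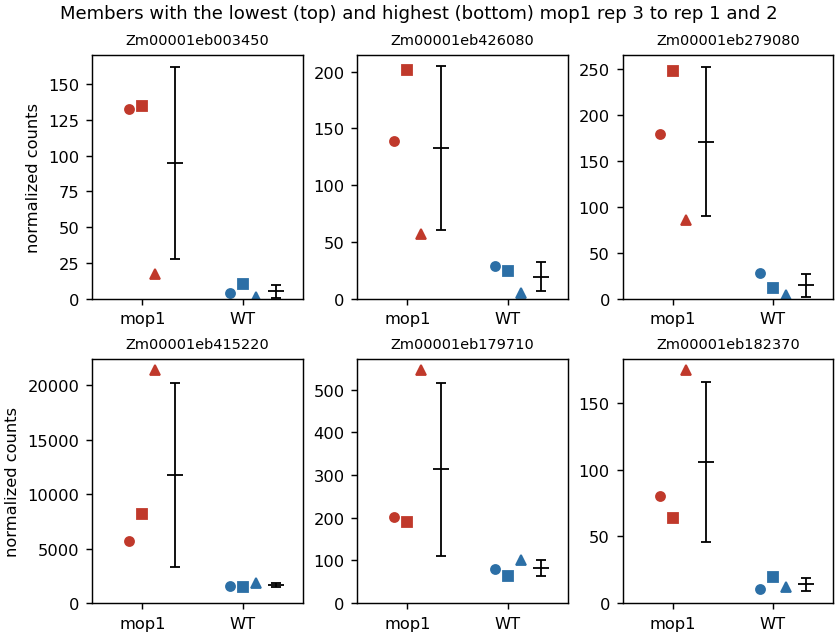
Normalized counts at the 3 members with the lowest (top) and the 3 with the highest (bottom) ratio of mop1 replicate 3 to the mean of mop1 replicates 1 and 2, with circles, squares and triangles for replicates 1, 2 and 3 and the mean and SD of 3 libraries in black. In the top row the triangles are the lowest points of mop1 and of WT; in the bottom row they are the highest of mop1.

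Each library was left out in turn to see whether genes chosen from the other 5 kept the gap in a library not used to choose them. Without mop1 replicate 1, 151 genes were chosen, and 83 of them (55.0%) kept the 1.5-fold gap in that library, where 4.87% of all genes did. Without mop1 replicate 2, 109 were chosen and 80 (73.4%) kept it, against 6.08% of all genes. Without mop1 replicate 3, 688 were chosen and 78 (11.3%) kept it, against 5.81% of all genes.

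The library left out thus moved the count most for mop1 replicate 3. At 496 of its 688 genes (72.1%), mop1 replicate 3 was at or below the highest WT library, while this held for mop1 replicate 1 at 28 of 151 genes and for mop1 replicate 2 at 7 of 109. The members are therefore a minority of the genes that part mop1 replicates 1 and 2 from WT: 77 of the 86 are among those 688. All 86 had the gap in mop1 replicates 1 and 2. The members not among the 688 missed only the minimum mean, which was taken again over 5 libraries. For WT, 50.6%, 71.0% and 54.3% of the genes chosen without replicates 1 to 3 kept the gap in the library left out, against 1.53%, 3.998% and 2.53% of all genes. The libraries of the other genotype are shared between choosing and reading, so these shares are descriptions. The chosen genes already had the gap in the other 5 libraries, and all genes did not. The shares of all genes are therefore not a like baseline.

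**Figure D5:**
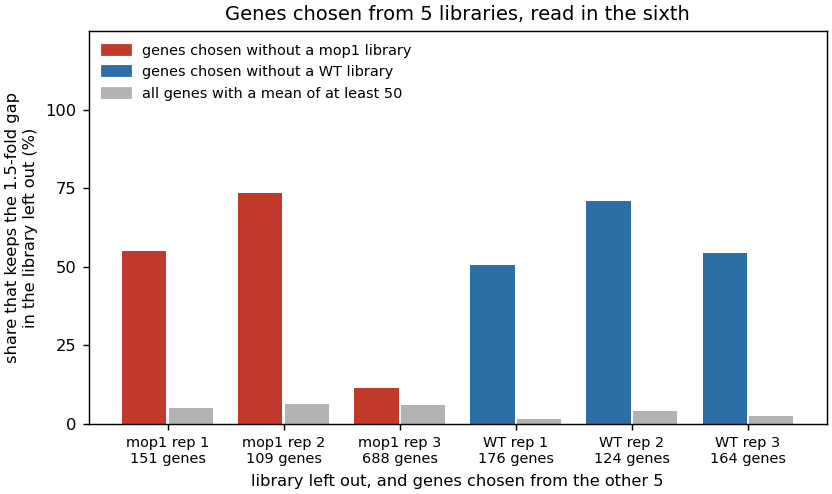
Bars give the share of genes chosen from 5 libraries that kept the 1.5-fold gap in the library left out, in red for mop1 and in blue for WT libraries, and grey bars give the same share of all genes with a mean of at least 50 in the other 5 libraries. The red bars stand at 55.0%, 73.4% and 11.3% for mop1 replicates 1 to 3.

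Many genes lay close to the limit of 1.5 on either side. Of the members, 22 had a gap of 1.5 to 1.6, and 21 further genes had a gap of 1.4 to 1.5. Just inside, Zm00001eb304420 had 71.4, 72.7 and 74.9 normalized counts in mop1, against 34.1, 47.1 and 39.8 in WT, and Zm00001eb090360 had 134, 119 and 135 in mop1, against 71.4, 50.6 and 78.9 in WT. Just outside, Zm00001eb124550 had 110.2, 79.6 and 94.5 in mop1, against 49.2, 53.1 and 53.4 in WT, and Zm00001eb003440 had 1006, 1544 and 692 in mop1, against 466, 315 and 296 in WT. At 85 members the counting interval of the ratio of group reads lay wholly above 1.5, the exception being Zm00001eb304420. The condition already puts this ratio at 1.5 or more at every member. The count of intervals thus follows largely from the choice of members and supports nothing.

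Some members stood next to each other in the order of gene IDs, in which the table is sorted. Adjacent rows held 4 members in 2 pairs. Zm00001eb171150 had 38.8, 133 and 103 normalized counts in mop1, against 14.3, 14.6 and 7.17 in WT, and the next row, Zm00001eb171160, had 162, 350.3 and 331 in mop1, against 34.9, 70.3 and 19.9 in WT. In both genes mop1 replicate 1 was the lowest and replicate 2 the highest of mop1, and WT replicate 2 was the highest and replicate 3 the lowest of WT.

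The other pair differed in fold. Zm00001eb326280 had 938, 894 and 572 normalized counts in mop1, against 164, 141 and 190.4 in WT, and the row before it, Zm00001eb326270, had 245, 180.2 and 151 in mop1, against 94.4, 72.9 and 76.5 in WT. The order of the mop1 libraries was the same in both, and the ratio of means was 4.85 and 2.37. How reads of overlapping or near-identical genes were counted is not given in the sources used here, so adjacent genes may share reads, and this was not tested.

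Within 100 rows, 31 members had another member, and the median distance to the nearest member was 177 rows. These distances were not set against those of as many genes scattered over the rows. Whether members lie closer together than scattered genes was therefore not tested, and the adjacent pairs show no clustering by themselves. The gene Zm00001eb003440, just outside the limit, stood in the row next to the member Zm00001eb003450. A pair of members bordered the left-out IDs, Zm00001eb078370 at 13 rows and Zm00001eb082630 at 11 rows from them, and both were named after their values were seen. Zm00001eb078370 had 203, 117 and 112 normalized counts in mop1, against 48.4, 48.9 and 36.6 in WT. Zm00001eb082630 had 642, 697 and 423 in mop1, against 178, 217 and 229 in WT. Genome positions of these IDs were not used here.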

How the data were processed

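The authors deposited 1 table of normalized counts, a signal per gene and library, for 3 mop1 and 3 WT libraries of immature anthers. DESeq2, HTSeq, HISAT2, SAMtools and Trimmomatic 0.39 are the tools named, per the submitters' processing notes. The sources used here do not give what each did, the genome build, the annotation or the use of strand. With a Mo17/B73 hybrid read against 1 reference, alleles may be counted unequally, which was not tested. All values (100%) were whole multiples of their column's smallest value within 0.01 of a read, so whole reads were recovered by division, 22635163 to 26531475 per library. Of 39756 IDs, 0 matched the 49888 genes of the RefSeq table (assembly Zm-B73-REFERENCE-NAM-5.0), so gene lists and markers were not analysed here.

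Members and the rule for named genes were chosen with earlier results of these data known. Named were the 10 members of widest gap, the 6 of highest mean, those called by limma, the nearest to the limit on both sides, the 3 with the highest and the 3 with the lowest mop1 replicate 3, and adjacent rows. limma 3.58.1 in R 4.3.3 (trend, robust, two-sided, Benjamini-Hochberg at 0.05) was run on log2(value + 1) for 23150 genes with at least 10 in at least 3 libraries; folds of low genes are understated. edgeR 4.0.16 and DESeq2 1.42.0 were run on the recovered reads. The fits were also run on simulated counts, whose outcome is not given here and supports none of the results. Alternatives were other scalings, pseudocounts, filters, tools, limits, a replicate block and each library left out. The replicate numbers come from the labels, which state no pairing. The block read the numbers as pairs, as an alternative only. Deviations from the mean of the genotype had correlations over genes of 0.15, 0.25 and 0.49 between libraries with the same number. However, mop1 replicate 1 correlated more with WT replicate 2 (0.33). These values come from the same data and depend on one another within a genotype, so they do not establish the pairs. Intervals from reads cover counting error only. Comparing the number of members with other groupings of the libraries was not done.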

Additional observations from a re-analysis of the deposited data

How the results depend on the processing

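The number of genes that met the condition was 86. It was 81 with TMM scaling (80 of the members among them), 102 with quantile normalization (82 of the members) and 87 with the left-out IDs kept. It was 28 with a fold of at least 2, 172 with a minimum mean of 10 and 32 with a minimum mean of 200, as a looser or stricter limit must make it, and 109 to 688 with 1 library left out, which loosens it too: 151, 109 and 688 without mop1 replicates 1 to 3, and 176, 124 and 164 without WT replicates 1 to 3. limma called 2 members and 2 genes higher. It called 3 and 3 with pseudocount 5, 3 and 5 with no filter, 3 and 3 with TMM scaling, and 3 and 3 with the replicate block, which ended neither of the 2 calls. edgeR called 2 and 2, and DESeq2 79 and 220. With 1 library left out, limma called 0 to 19 members and 0 to 166 genes: 3 and 3 without mop1 replicate 1, 0 and 0 without mop1 replicate 2, 19 and 166 without mop1 replicate 3, and 0 and 0 without each WT library. In the fits with 0 calls, 538 to 744 genes were higher at an unadjusted p under 0.05. Chosen after seeing the data, fits without mop1 replicate 3 called 24 members and 252 genes by edgeR, and 82 and 1250 by DESeq2. At a fold of at least 2, the share of genes that kept the gap in mop1 replicate 3 when it was left out was 6.14%, against 11.3% at 1.5; for mop1 replicates 1 and 2 it was 55.1% and 72.7%, against 55.0% and 73.4%. The direction of the 25 named members is set by how they were chosen and is no sign of stability. Of their 350 refitted values, 66 passed the threshold that the original fit did not, 42 of them by DESeq2, and 8 no longer did. Those 8 belong to Zm00001eb072130 and Zm00001eb432880 with mop1 replicate 2 or a WT library left out. Causes of these movements were not tested. Low reads limit the members weakest in WT.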
